A study of Mus musculus with 5 samples.

Results

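A set of 10 genes known from tendon were followed across 5 single-cell RNA-seq libraries of mesenchymal cells sorted from mouse skeletal muscle before and after tibial injury. The 10 genes, of 31055 in the deposited matrices, were the transcription factors Scx and Mkx, the membrane protein gene Tnmd, and the genes Chad, Comp, Cilp2, Angptl7, Chodl, Ptx4 and Col22a1. They were chosen by symbol with their levels in these same libraries already known, so every level and ratio below is a description of these libraries and none is a test. Their UMIs were read in 29831 retained cells, those with 350 to 8000 genes, under 20% mitochondrial UMIs and at least 1000 UMIs (unique molecular identifiers, each counting 1 captured transcript).

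The cells were GFP+ cells sorted from Prx1Cre;mTmG mice on a C57Bl/6 background, 10 to 14 weeks old, in which Cre driven by the Prx1 limb mesenchyme enhancer switches a membrane Tomato reporter to membrane GFP in cells of that lineage and in their progeny. They came from the hindlimb muscles around the tibia, after the tendons and fat had been removed, with the cells of 2 mice pooled in each library. The conditions were uninjured muscle (d0), d3 and d5 after a non-stabilized tibial fracture, and d3 and d5 after polytrauma, which is the same fracture with mechanical injury of the surrounding muscles. Each condition had 1 library, so intervals below cover counting error only and no p-value was computed. The library labelled d5 fracture was read as d3 polytrauma and the library labelled d3 polytrauma as d5 fracture, following the cell numbers of the study. The d0 and d3 libraries shared between 405 and 525 cell barcodes pair by pair, the library read as d5 fracture shared 944 with d5 polytrauma, and any other pair shared at most 3. The d5 libraries thus carried another barcode set than the d0 and d3 libraries, and the day cannot be told apart from that difference.

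The 5 libraries held 4632 retained cells at d0, 5589 at d3 post-fracture, 6201 at d3 polytrauma, 1468 at d5 post-fracture and 11941 at d5 polytrauma, with median UMIs per cell of 3640, 17963, 15688, 34949 and 15753. Between 0.749% and 2.83% of retained cells carried a barcode that another library also held and had under 10 times the UMIs found there. Below, shared barcodes means those of such cells only. Leaving them out moved no log2 ratio of a member by more than 0.08. Cells with at least 10 times the UMIs of the same barcode elsewhere were kept. At d5 post-fracture 944 of 2001 deposited barcodes were in another library, while 11 retained cells met the rule. The tenocyte markers Kera, Fmod and Thbs4, taken with the members Scx and Tnmd, were all above 0 UMIs in every library, and the summed level of the 5 was 2381 CPM at d0 (UMIs per 1000000 UMIs of the retained cells), 351 and 233 CPM at d3 post-fracture and polytrauma, and 900 and 690 CPM at d5. The summed level of 5 myogenic markers was 0.287 to 3.72 CPM, with 3 of them at 0 at d0 and 2 at d3 and d5 post-fracture, and that of 5 endothelial markers 3.64 to 48.7 CPM. That of 5 chondrocyte markers was 6.31 to 35.3 CPM at d0 and d3, and 2623 CPM at d5 post-fracture against 185 CPM at d5 polytrauma. That of 7 mural markers was 734 CPM at d0, 72.3 and 64.6 at d3 post-fracture and polytrauma, and 236 and 103 at d5. That of 5 osteoblast markers was 83.5 CPM at d0, 0.74 and 0.407 at d3, and 91.2 and 22.3 at d5. The part of these cell types in the results was not tested.

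Tendon is built of collagen fibrils laid down by tenocytes. Scleraxis (Scx) is a basic helix-loop-helix factor that marks tendon progenitors and binds E-box motifs, Mohawk (Mkx) is a homeobox factor needed for tendon collagen production, and tenomodulin (Tnmd) is a membrane glycoprotein of differentiated tenocytes that depends on Scx. Chad (chondroadherin), Comp (cartilage oligomeric matrix protein) and Cilp2 (cartilage intermediate layer protein 2) are matrix proteins that tendon shares with cartilage, and Angptl7 is a secreted angiopoietin-like protein. Col22a1 encodes a collagen of tissue junctions, among them the myotendinous junction where muscle fibres insert into tendon, Chodl encodes the C-type lectin chondrolectin, and Ptx4 a member of the pentraxin family.

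Positions of 9 of the genes were read from GENCODE M21 (GRCm38). Scx (ENSMUSG00000034161) spans 76457452 to 76459458 of chromosome 15 and Col22a1 (ENSMUSG00000079022) 71795795 to 72034227 of the same chromosome, on the other strand. Tnmd (ENSMUSG00000031250) lies at 133850980 to 133865577 of chromosome X, Chad (ENSMUSG00000039084) at 94565047 to 94569127 of chromosome 11, and Chodl (ENSMUSG00000022860) at 78930948 to 78951733 of chromosome 16. Comp (ENSMUSG00000031849) and Cilp2 (ENSMUSG00000044006) are both on chromosome 8, at 70373558 to 70382066 and 69880369 to 69887687. Angptl7 (ENSMUSG00000028989) lies at 148495183 to 148500460 of chromosome 4 and Ptx4 (ENSMUSG00000044172) at 25120760 to 25125292 of chromosome 17. Mkx has the identifier ENSMUSG00000061013.

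Because groups of the members rose and fell together across cells, the sequence before the transcription start is shown for 4 members. Windows were read for 5 members from the RefSeq promoter table (GRCm38.p6). Every E-box (CANNTG, which reads the same on both strands) is in capitals. Chad and Angptl7 stand for the members that moved with Chad, Chodl for those that moved with Col22a1, and Tnmd for those shared by both. No window was read for Scx, Mkx, Comp, Ptx4 and Col22a1. The windows are chr11:94564797-94565046 on the plus strand for Chad, chr4:148500463-148500712 on the minus strand for Angptl7, chr16:78930698-78930947 on the plus strand for Chodl and chrX:133850758-133850979 on the plus strand for Tnmd, whose window stops where the GENCODE transcript starts.
Chad: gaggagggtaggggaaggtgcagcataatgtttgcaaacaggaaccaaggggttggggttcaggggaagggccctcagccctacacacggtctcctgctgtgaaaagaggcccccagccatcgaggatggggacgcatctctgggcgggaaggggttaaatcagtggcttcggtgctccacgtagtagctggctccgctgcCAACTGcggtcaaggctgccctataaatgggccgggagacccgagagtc
Angptl7: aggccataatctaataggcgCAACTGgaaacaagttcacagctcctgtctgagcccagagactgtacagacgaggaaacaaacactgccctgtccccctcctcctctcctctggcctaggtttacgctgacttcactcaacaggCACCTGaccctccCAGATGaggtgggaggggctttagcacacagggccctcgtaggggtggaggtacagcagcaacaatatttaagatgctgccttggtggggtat
Chodl: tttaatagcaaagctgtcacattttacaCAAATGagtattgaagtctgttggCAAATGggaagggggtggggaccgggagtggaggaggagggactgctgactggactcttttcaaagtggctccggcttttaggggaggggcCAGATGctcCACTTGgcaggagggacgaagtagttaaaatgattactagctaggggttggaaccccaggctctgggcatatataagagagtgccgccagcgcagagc
Tnmd: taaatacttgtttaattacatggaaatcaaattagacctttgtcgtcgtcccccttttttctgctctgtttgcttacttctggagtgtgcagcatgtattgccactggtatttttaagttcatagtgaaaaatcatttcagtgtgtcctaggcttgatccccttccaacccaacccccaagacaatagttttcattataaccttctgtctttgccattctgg
In the 250 bases before the RefSeq start, Chodl held 4 E-boxes, Angptl7 3, Chad 1 and Tnmd 0, while 66.2% of the 32851 windows of the table held at least 1. The CATCTG form of the E-box, which overlaps the CANNTG search and was read on both strands, occurred once each before Angptl7 and Chodl, in both as CAGATG, and in 14.4% of all windows. Chad held a TATAAA that began 28 bases before its start, a motif in 12.4% of windows. The window of Cilp2 lies inside its GENCODE gene and was left out. None of the other 4 windows held the AP-1 motif TGANTCA, which was in 6.75% of windows. These matches are letters in a window and show no binding.

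In uninjured muscle, the 10 genes were concentrated in 1 small group of cells. Cells were clustered in each library on variable genes from which the 10 members had been removed. A d0 cluster of 376 cells (8.12% of the library) was led by Col22a1, Kera, Chodl, Wif1, Scx, Fmod, Col11a2, Tnmd, Thbs4 and Insc, and was called tenocyte-like. The name rests on Scx, Tnmd, Kera, Fmod and Thbs4, of which the last 3 are not members. It held 97.1% of the Col22a1 UMIs of the library, 92.9% of Chodl, 92.3% of Scx, 88.6% of Tnmd, 84.3% of Ptx4, 83.9% of Mkx, 81.8% of Cilp2, 77.5% of Angptl7, 67.9% of Chad and 63.2% of Comp. For each member this cluster held most of the UMIs at d0, with the lowest shares for Chad and Comp.

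Inside that cluster, Tnmd reached 4017 CPM (95% counting interval 3923 to 4112) against 57.5 CPM in the other cells, and Chad reached 2407 CPM against 127 CPM. Scx stood at 96.5 CPM (82.5 to 112) inside and 0.892 CPM (0.488 to 1.5) outside. With each cell thinned to 2000 UMIs, so that cells of unequal depth can be compared, 333 of 352 tenocyte-like cells (94.6%, exact binomial interval 91.7 to 96.7) had a Tnmd UMI, 63.1% a Chad UMI, 22.2% an Mkx UMI and 16.5% an Scx UMI. Most tenocyte-like cells therefore carried Tnmd UMIs, while the transcription factors were captured in a minority of them at this depth.

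Chad, Comp and Cilp2 had a second location at d0. A cluster of 66 cells led by the osteoblast genes Bglap2 and Bglap and by Ostn, Wnt16 and Dlx5 held 25.1% of the Chad UMIs, 12.7% of Cilp2 and 11.9% of Comp. Chad stood at 3585 CPM (3409 to 3767) in these cells, above its 2407 CPM in the tenocyte-like cluster. Scx was 11.5 CPM (3.74 to 26.8) and Chodl 2.3 CPM (0.0583 to 12.8) there, on 5 and 1 UMIs. A cluster of 575 cells led by Clu, Meox1, Fst and Myoc held a further 17.2% of Comp UMIs, at 337 CPM.

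The tenocyte-like cluster of d0 divided into parts that used different members. At a finer resolution the cluster split into 264 cells led by Wif1, Col11a2, Fmod and Egfl6 and 112 cells led by Fam159b, Col22a1, Chodl, Col26a1 and Spock3. Angptl7 stood at 1482 CPM (1414 to 1551) in the Wif1-led cells and 30.4 CPM (17.4 to 49.3) in the Col22a1-led cells. Chad stood at 3266 CPM in the former and 410 CPM (357.2 to 468.5) in the latter, Comp at 1841 and 427 CPM, and Cilp2 at 755 and 144 CPM. The reverse was seen for Col22a1, at 22.9 CPM (15.2 to 33.1) in the Wif1-led cells and 702 CPM (633 to 778) in the Col22a1-led cells, for Chodl at 139 and 2179 CPM, and for Ptx4 at 120 and 752 CPM. Mkx intervals overlapped, at 125 CPM (106 to 146.5) and 125 CPM (96.9 to 159), and Tnmd was high in both, at 3543 and 5118 CPM. Scx was 66.2 CPM (52.6 to 82.3) in the Wif1-led cells and 167 CPM (134 to 206) in the Col22a1-led cells, intervals that do not overlap. At this resolution only the Wif1-led cells met the naming rule for tenocyte-like cells, and the Col22a1-led cells were left unnamed. The 2 sets of cells came from 1 library, so the contrast has no replicate.

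**Figure D1:**
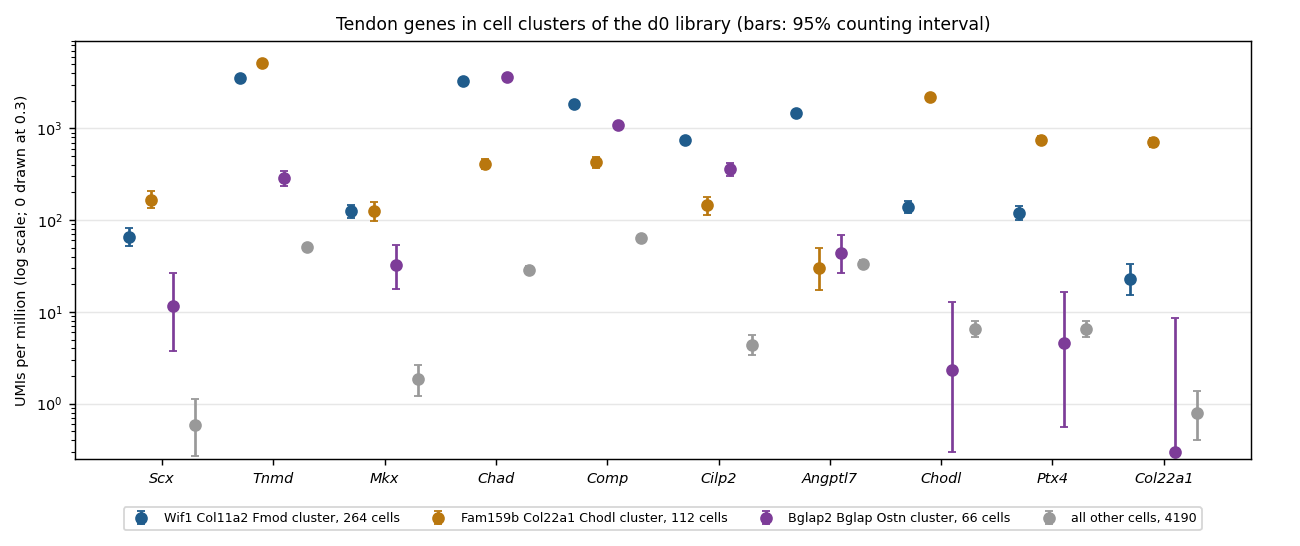
Level of each gene in CPM (log axis) in 3 clusters of the d0 library and in all other cells, with bars for the 95% counting interval. Chad, Comp, Cilp2 and Angptl7 sit highest in the Wif1-led cells or, for Chad, in the Bglap2-led cells, whereas Chodl, Ptx4 and Col22a1 sit highest in the 112 cells led by Fam159b and Col22a1.

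The same division can be read from pairs of members across the same d0 cells, which gives no separate support for it. Across the 4632 d0 cells, on the scale ln(1 + UMIs per 10000), Pearson r among Chad, Comp, Cilp2 and Angptl7 was 0.40 to 0.72 over 6 pairs and r among Chodl, Ptx4 and Col22a1 was 0.60 to 0.71 over 3 pairs. Between the groups r was 0.01 to 0.27 over 12 pairs. Tnmd was tied to both, with r = 0.63 for Cilp2 and r = 0.54 for Ptx4. These values are descriptions, since all cells share 1 library and its depth.

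Counts of cells with both genes of a pair were set beside the product of their shares. At 2000 UMIs per cell, 87 of 3888 d0 cells had UMIs of both Chodl and Ptx4, where the product of their shares gave 6.71 cells, and 72 had both Chodl and Col22a1, where the product gave 3.84. Both Chad and Cilp2 were found in 175 cells against 22 by the product. Angptl7 and Chodl met in 16 cells against 9.45, and Angptl7 and Col22a1 in 10 against 5.24, the lowest ratios to the product among the 45 pairs. The counts did not order the pairs in full as r did, since Comp and Angptl7 of the first group met in 4.64 times the product and Cilp2 and Ptx4, of different groups, in 5.41 times. At least 3 of the 10 members were found in 352 of 3888 cells (9.05%, 8.17 to 10), and at least 5 in 186 (4.78%).

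**Figure D2:**
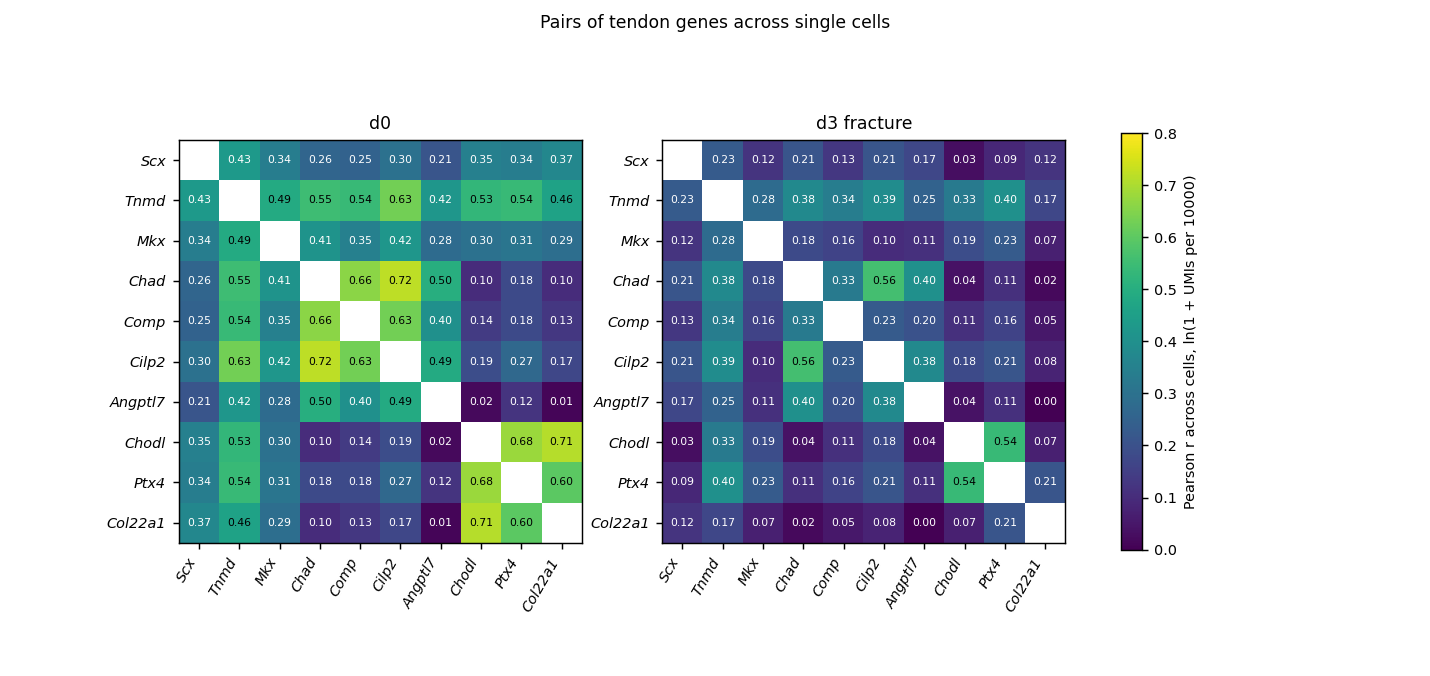
Pearson r of each pair of genes across single cells, on ln(1 + UMIs per 10000), for the d0 library on the left and d3 post-fracture on the right; brighter squares are higher r. At d0 a square of Chad, Comp, Cilp2 and Angptl7 (0.40 to 0.72) and a square of Chodl, Ptx4 and Col22a1 (0.60 to 0.71) stand apart from the low values between them (0.01 to 0.27).

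The genes outside the list whose level across d0 cells was most like that of a member were largely shared. Among the 5 most like each member were Fmod for 8 of the 10, Thbs4 for 8, Col11a1 for 7 and Kera for 5. Fmod (fibromodulin, a collagen-binding proteoglycan) reached r = 0.78 with Tnmd and 0.73 with Cilp2. Wif1, a secreted Wnt inhibitor, was among the 5 for Chad, Comp, Cilp2 and Angptl7 (r = 0.67, 0.55, 0.64 and 0.56) and for no other member. Spock3 was among the 5 for Chodl and Col22a1 (r = 0.50 and 0.44), and Fam159b led for Col22a1 (r = 0.62).

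After injury the 10 genes were lower at d3 than at d0, and only some of them were higher at d5 than at d3. Scx stood at 10.5 CPM (9.03 to 12.1) at d0, 2.33 at d3 post-fracture, 0.649 at d3 polytrauma, 45.7 (43.9 to 47.6) at d5 post-fracture and 35.6 (34.8 to 36.4) at d5 polytrauma. It was thus lowest at d3 and higher at d5 than in uninjured muscle, and no neighbouring levels had overlapping intervals. Tnmd stood at 455 CPM at d0, 38.6 and 22.7 at d3 post-fracture and polytrauma, and 122.5 and 77.3 at d5. Its d5 levels lay between those of d3 and d0. Mkx stood at 15 CPM at d0, 3.81 and 3.19 at d3, and 6.38 and 5.72 at d5, with overlapping intervals between the injuries at each day.

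Comp went past its uninjured level in the fracture library. It stood at 225 CPM at d0, 51.9 and 19.6 at d3 post-fracture and polytrauma, 685 (678 to 692) at d5 post-fracture and 98 (96.6 to 99.4) at d5 polytrauma. Chad stood at 356 CPM at d0, 5.95 and 0.513 at d3, 8.77 (7.99 to 9.62) at d5 post-fracture and 0.45 (0.362 to 0.552) at d5 polytrauma, and the intervals of the 2 polytrauma libraries overlapped. Cilp2 stood at 70.1 CPM at d0, 0.891 and 0.116 at d3, 5.4 at d5 post-fracture and 0.247 at d5 polytrauma. These 3 matrix genes were lower after polytrauma than after fracture on both days.

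The remaining members stayed low at d5. Angptl7 stood at 135 CPM at d0, 2.48 and 2.62 at d3 post-fracture and polytrauma, and 1.06 and 0.514 at d5. Chodl stood at 81.4 CPM at d0, 2.27 and 0.349 at d3, and 2.18 and 0.356 at d5, so that d3 and d5 overlapped within each injury. Ptx4 stood at 36.9 CPM at d0, 2.02 and 0.368 at d3, and 1.27 and 1.02 at d5. Col22a1 had 410 UMIs at d0 (23.5 CPM) and only 13, 19, 15 and 86 UMIs in the libraries of d3 post-fracture, d3 polytrauma, d5 post-fracture and d5 polytrauma (0.13, 0.184, 0.289 and 0.425 CPM), and its intervals overlapped between each pair of neighbouring levels after injury. In bulk terms, fewer cells of a type and less RNA per cell cannot be told apart in these library sums.

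**Figure D3:**
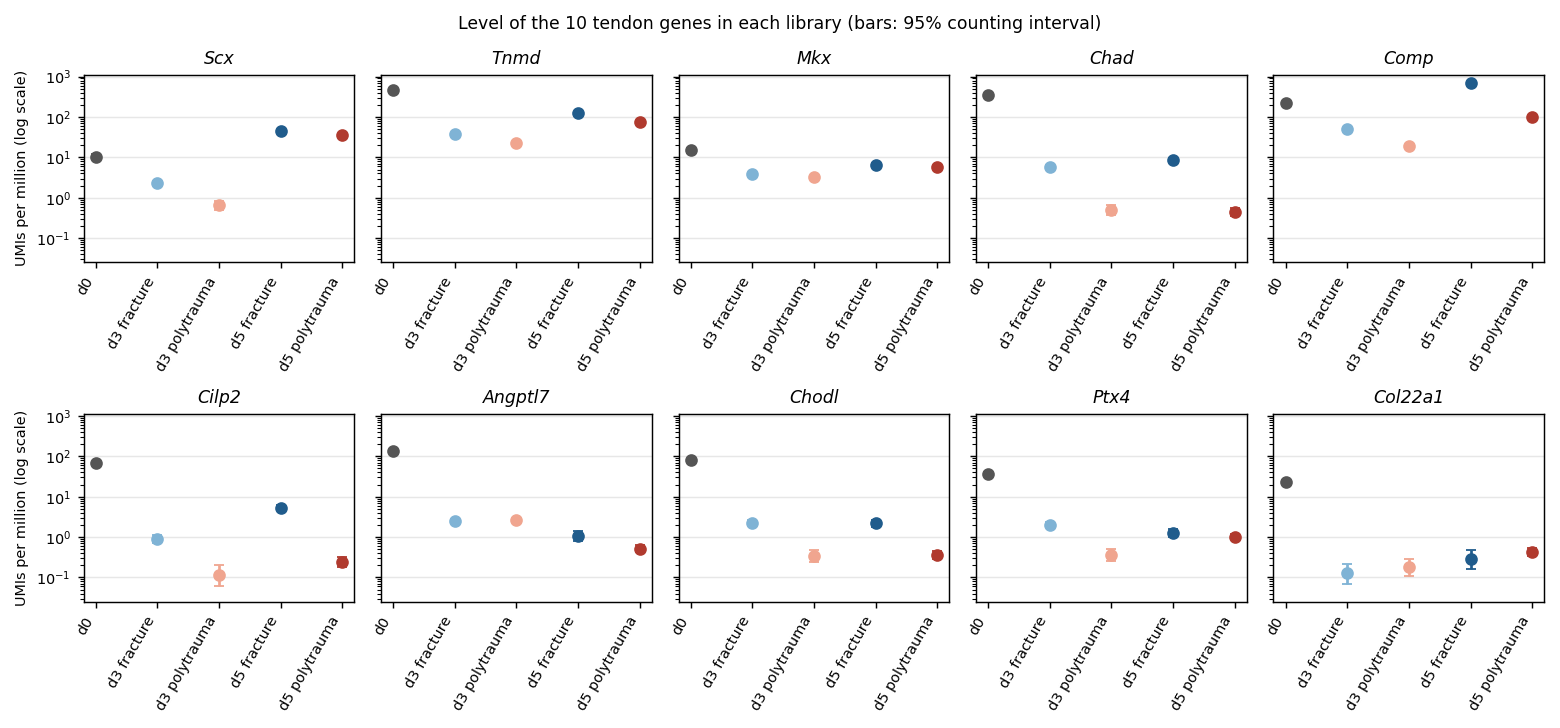
Level of each of the 10 genes in CPM on a log axis, 1 point per library with its 95% counting interval. Scx and Comp are highest at d5 post-fracture, at 45.7 and 685, and the other 8 genes are highest at d0.

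A gene was counted as past 2-fold when its CPM ratio was at least 2 in either direction, among genes with at least 20 UMIs over both libraries. The 10 members passed that minimum in each comparison, but Col22a1 at d3 post-fracture and Cilp2 and Col22a1 at d3 polytrauma did so through their d0 UMIs. Cilp2 at d3 polytrauma against d3 post-fracture (12 and 89 UMIs) did so through the fracture library. At d5 against d3 polytrauma, Cilp2 (50 and 12 UMIs) and Col22a1 (86 and 19) did so through d5, as did Col22a1 at d5 polytrauma against d5 post-fracture (86 and 15). At d3 post-fracture against d0, 10 of 10 members were at least 2-fold lower and 0 higher, where 33.5% of the 14610 genes compared were lower and 13.0% higher. Col22a1 was 181-fold lower (104.5 to 342.4), Cilp2 78.7-fold (63.4 to 98.7), Chad 59.8-fold (54.9 to 65.1) and Angptl7 54.5-fold (47.8 to 62.4), while Mkx was 3.93-fold (3.34 to 4.61), Comp 4.33-fold and Scx 4.5-fold lower. The median log2 ratio of the members was -4.68 beside -0.45 over the genes compared. With median-of-ratios scaling the latter was 0.13, and the 10 members were again past 2-fold lower.

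At d3 polytrauma against d0, 10 of 10 members were at least 2-fold lower and 0 higher, where 32.5% of 14809 genes were lower and 13.1% higher. Chad was 693.5-fold lower (529.5 to 926.9), Cilp2 603-fold (344 to 1171, on 12 UMIs), Chodl 233.5-fold (167.8 to 334.7) and Scx 16.2-fold (12.2 to 21.7). Mkx was again the member with the smallest ratio, 4.7-fold lower (3.98 to 5.54). The median log2 ratio of the members was -6.17 beside -0.43 over the genes compared. This comparison and the preceding one share the d0 library.

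At d3, 6 of the 10 members were at least 2-fold lower after polytrauma than after fracture and 0 higher, where 3.14% of 15038 genes were lower and 5.45% higher. Chad was 11.6-fold lower (8.75 to 15.7), Cilp2 7.66-fold (4.18 to 15.4), Chodl 6.52-fold (4.57 to 9.54), Ptx4 5.49-fold (3.87 to 7.99), Scx 3.59-fold (2.73 to 4.79) and Comp 2.65-fold (2.51 to 2.79). The intervals of the ratio included 1 for Angptl7 (0.887 to 1.26) and Col22a1 (0.663 to 3.12). The UMIs of some members came from few cells. At d3 post-fracture the 10 highest cells held 75% of Angptl7 UMIs, 61% of Chad and 49.8% of Chodl. They held 15.9% of Scx and 8.3% of Comp. With each cell thinned to 2000 UMIs the log2 ratio of Angptl7 was -1 instead of 0.08.

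From d3 to d5 after fracture, 5 members were at least 2-fold higher and 1 lower, where 40.3% of 15115 genes were higher and 5.45% lower. Scx was 19.6-fold higher (17.1 to 22.5), Comp 13.2-fold (12.8 to 13.6), Cilp2 6.06-fold (4.76 to 7.78) and Tnmd 3.17-fold (3.05 to 3.3). Col22a1 was 2.22-fold higher with an interval that included 1 (0.987 to 5.08), and Angptl7 was 2.34-fold lower (1.74 to 3.19). The median log2 ratio was 0.95 for the members and 0.73 over the genes compared, and with median-of-ratios scaling, which brought the latter to -0.01, 3 members were past 2-fold higher and 2 lower.

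From d3 to d5 after polytrauma, 6 members were at least 2-fold higher and 1 lower, where 28.8% of 16093 genes were higher and 7.49% lower. Scx was 54.9-fold higher (43.2 to 70.9), from 67 UMIs to 7199, Comp 4.99-fold (4.77 to 5.23) and Tnmd 3.41-fold (3.26 to 3.56). Ptx4, Col22a1 and Cilp2 were 2.77-fold (1.95 to 4.02), 2.31-fold (1.39 to 4.02) and 2.13-fold (1.12 to 4.39) higher, on 38, 19 and 12 UMIs at d3. Angptl7 was 5.1-fold lower (4.06 to 6.46). The ratios of Chad (0.618 to 1.25) and Chodl (0.676 to 1.57) had intervals that included 1. The median log2 ratio of the genes compared was 0.48, and with median-of-ratios scaling 3 members were past 2-fold higher and 1 lower.

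At d5, 5 of 10 members were at least 2-fold lower after polytrauma than after fracture and 0 higher, where 14.7% of 15979 genes were lower and 3.7% higher. Cilp2 was 21.8-fold lower (16.1 to 30.1), Chad 19.5-fold (15.5 to 24.7), Comp 6.99-fold (6.87 to 7.11), Chodl 6.12-fold (4.51 to 8.34) and Angptl7 2.06-fold (1.46 to 2.89). The 55 Angptl7 UMIs at d5 post-fracture lay in 18 cells, and the 10 highest cells held 85.5% of them. Scx was 1.28-fold lower (1.22 to 1.34) and Tnmd 1.58-fold lower (1.54 to 1.63). The ratio intervals of Mkx, Ptx4 and Col22a1 included 1. The chondrocyte markers moved with this comparison, at 2623 CPM after fracture and 185 CPM after polytrauma, and without the cells that held any Col2a1 UMI the log2 ratio of Chad was -6.29 instead of -4.29 and that of Angptl7 -0.08 instead of -1.04, while Scx and Tnmd changed direction, to 0.25 from -0.36 and to 0.28 from -0.66. That alternative left out 1058 of 1468 cells of the d5 fracture library and 711 of 11941 of the d5 polytrauma library.

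Tenocyte-like clusters were also found at d3 post-fracture (251 cells), d3 polytrauma (518 cells) and d5 polytrauma (622 cells). Each had Kera, Tnmd and Fmod among its 10 leading genes. No cluster of the d5 fracture library met the naming rule at either resolution, but such cells need not be absent there. In that library 232 of 1438 thinned cells (16.1%) had UMIs of at least 2 of the 5 tenocyte markers. The share was 11.2% at d0, 6.79% and 3.99% at d3 post-fracture and polytrauma, and 12.8% at d5 polytrauma. This share alone does not count tenocyte-like cells. Of the 5 markers, Kera stood at 196.4 CPM at d0 and 4.4 CPM at d5 post-fracture, and Tnmd at 454.9 and 122.5. Fmod stood at 1260.3 and 346.6 CPM, Thbs4 at 459.1 and 380.8, and Scx at 10.5 and 45.7. Within the tenocyte-like clusters after injury the members were again far below d0. Chad fell from 2407 CPM at d0 to 153 CPM (141 to 166) at d3 post-fracture, 6.11 CPM (4.54 to 8.06) at d3 polytrauma and 0.73 CPM (0.294 to 1.51) at d5 polytrauma. Tnmd stood at 666 CPM at d3 post-fracture, 222 CPM at d3 polytrauma and 787 CPM at d5 polytrauma. Scx was the exception, at 96.5 CPM at d0, 23.5 CPM (18.8 to 29) at d3 post-fracture, 5.5 CPM (4.01 to 7.36) at d3 polytrauma and 271 CPM (260 to 281) at d5 polytrauma, which was 2.8-fold (2.4 to 3.29) above d0.

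The share of tenocyte-like cells with a UMI told the same. At 2000 UMIs per cell, Scx was detected in 16.5% of them at d0, 5.67% at d3 post-fracture, 0.772% at d3 polytrauma and 33% (29.3 to 36.9) at d5 polytrauma. Cilp2 was detected in 47.4%, 4.45%, 0.386% and 0.485%. Angptl7 was detected in 38.1%, 7.29%, 3.47% and 0.324%. Chad was detected in 63.1%, 13.4% and 0.965%, and in 0 of 618 cells at d5 polytrauma (exact upper bound 0.595%). Ptx4 was detected in 36.4%, 10.5%, 0.965% and 4.53% (3.03 to 6.48), so that it was higher at d5 than at d3 polytrauma without nearing d0. The ratios inside the cluster at d3 polytrauma against d3 post-fracture were 25-fold lower for Chad (18.7 to 34.2), 12.6-fold for Chodl (8.38 to 19.6), 11.2-fold for Ptx4 (7.73 to 16.8), 3-fold for Tnmd (2.82 to 3.19) and 2.1-fold for Angptl7 (1.74 to 2.52). These ratios depend on the resolution. At the finer setting the tenocyte-like clusters held 243 cells at d3 post-fracture and 323 at d3 polytrauma. Chad stood at 162.4 and 2.01 CPM in them and Chodl at 45.2 and 4.02. Ptx4 stood at 47.6 and 5.7 CPM, Tnmd at 688.2 and 207.2, and Angptl7 at 67.2 and 34.7. Cells of the clusters were assigned in each library separately, so a tenocyte-like cluster need not hold the same cells in different libraries.

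**Figure D4:**
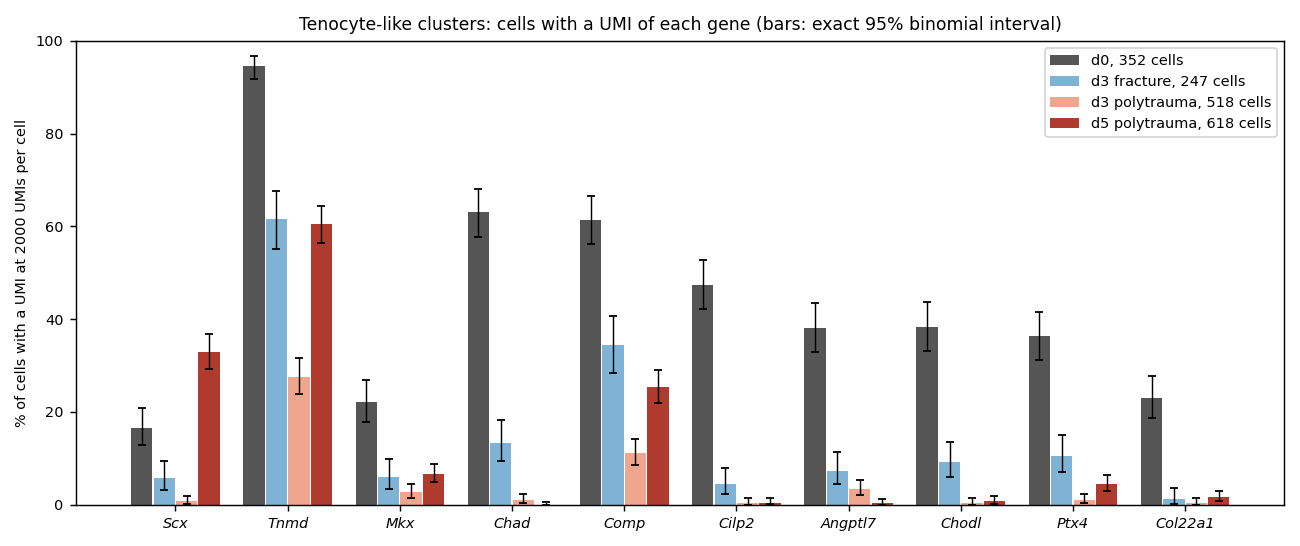
Percent of tenocyte-like cells with at least 1 UMI of each gene, each cell thinned to 2000 UMIs, in the 4 libraries that had such a cluster, with the exact 95% binomial interval. Every gene is highest at d0 except Scx, which reaches 33% at d5 polytrauma against 16.5% at d0.

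Scx UMIs were less concentrated in 1 cluster after injury than at d0, as were those of Tnmd, Mkx and Comp. At d0 a single cluster held 92.3% of Scx UMIs. Reaching 90% took 5 of 11 clusters at d3 post-fracture, 3 at d3 polytrauma, 5 at d5 post-fracture and 7 of 15 at d5 polytrauma. For Tnmd, Mkx and Comp it took 2, 3 and 3 clusters at d0 and 7, 9 and 8 at d5 polytrauma. Clusters with any Scx UMI numbered 7 at d0, 7 at d3 post-fracture and 6 at d3 polytrauma. The cluster with most Scx UMIs held 36.5% of them at d3 post-fracture and 67.2% at d3 polytrauma. At d5 post-fracture Scx stood at 81.2 CPM in dividing cells led by Rad54b and Aspm and 54.9 CPM in the chondrocyte-like cluster. In the largest cluster of that library, led by Pdzrn4 and Gzme, it stood at 48.5 CPM. At d5 polytrauma the tenocyte-like cluster held 36% of Scx UMIs. Cells led by Nusap1 and histone genes held 15% at 18.4 CPM, and cells led by Bmp2 and Tspan2 13.1% at 56.8 CPM. In the d5 fracture library the Pdzrn4-led cluster held the largest share of both Scx (27.1%) and Tnmd (35.1%) UMIs. Tnmd stood at 208 CPM in the Egfl6-led cells and 83.7 CPM in the chondrocyte-like cells of that library.

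Comp and Chad were highest at d5 in cartilage-like cells. A cluster of 183 cells at d5 post-fracture, led by Hapln1, Ncmap, Meltf and Col2a1 and called chondrocyte-like, held 63.3% of Chad UMIs (33.2 CPM) and 46.9% of Comp UMIs (1923 CPM). A cluster of 236 cells at d5 polytrauma, led by Hapln1 and Col2a1, held 79.1% of Chad UMIs (24.6 CPM) and 20.2% of Comp UMIs (1364 CPM). In 96 of its cells the barcode was shared as defined above. Cells with at least 3 Col2a1 UMIs were therefore compared with cells with 0, with and without shared barcodes. At d5 polytrauma Chad was 251-fold higher (148 to 448) in the 220 Col2a1 cells than in the 11230 cells without Col2a1, and 247-fold (145 to 442) without shared barcodes, on 67 and 18 UMIs. Comp was 16.7-fold higher (16.1 to 17.3), and Tnmd was lower, at 45.9 and 73.6 CPM. At d5 post-fracture the ratios were 2.21-fold for Chad (1.72 to 2.86), 2.66-fold for Comp (2.57 to 2.74), 2.21-fold for Tnmd (2.03 to 2.42) and 1.98-fold for Scx (1.74 to 2.25), and Cilp2 (5.28 against 8.43 CPM) and Chodl (1.18 against 2.62 CPM) were lower in the Col2a1 cells. The median UMIs of these cells were 42809 with and 24174.5 without Col2a1 at d5 post-fracture.

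**Figure D5:**
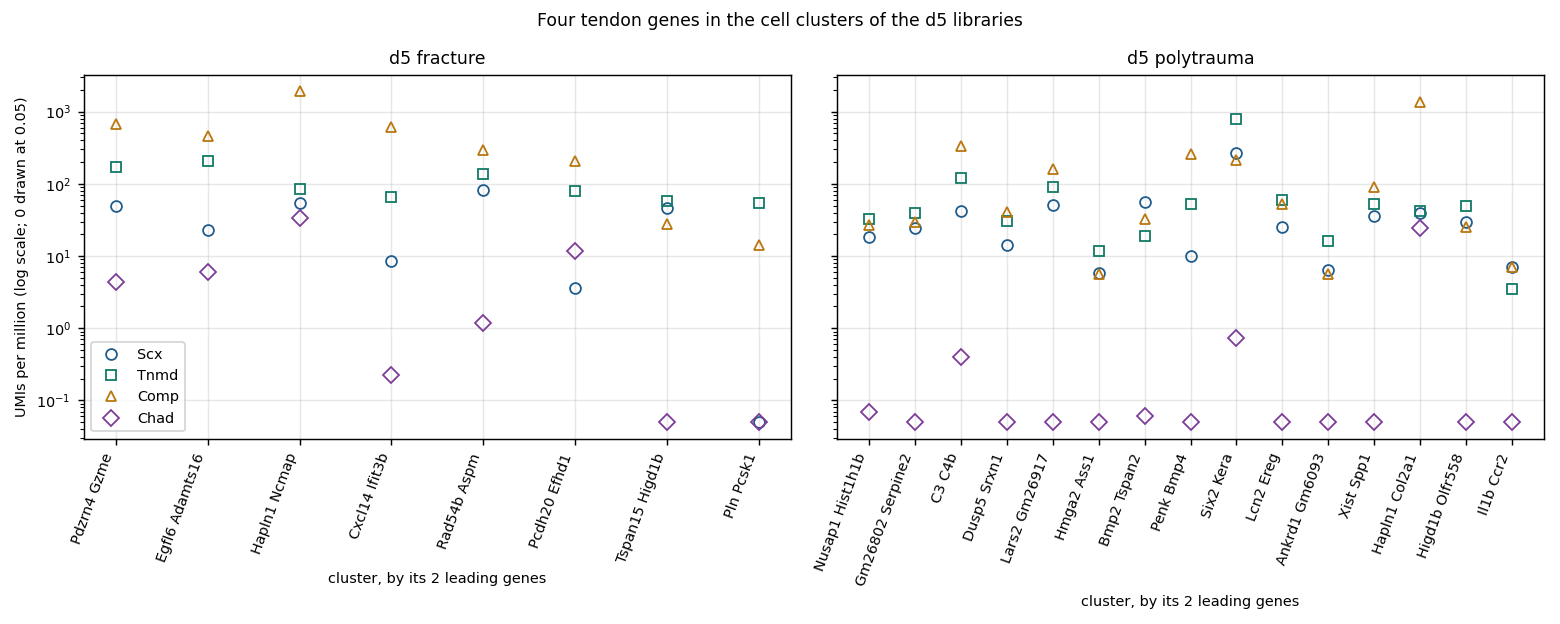
Level of Scx, Tnmd, Comp and Chad in CPM (log axis, 0 drawn at 0.05) in 8 of the 9 clusters of the d5 fracture library on the left and the 15 clusters of the d5 polytrauma library on the right, clusters named by their 2 leading genes. Comp and Chad peak in the Hapln1-led clusters, at 1923 and 33.2 after fracture and at 1364 and 24.6 after polytrauma, and Scx and Tnmd of the polytrauma library are highest in the Six2 and Kera cluster, at 271 and 787.

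Most UMIs of Chodl, Ptx4 and Col22a1 lay in 1 cluster of each d5 library. At d5 post-fracture 77.9% of Chodl UMIs, 60.6% of Ptx4 and 86.7% of Col22a1 lay in the 229 cells of the cluster led by Egfl6, Adamts16 and Gas2, and r among the 3 genes was 0.45 to 0.60. At d5 polytrauma 65.3% of Chodl, 81.1% of Ptx4 and 60.5% of Col22a1 UMIs lay in the tenocyte-like cluster, with r of 0.27 to 0.37. At d3 post-fracture Chodl and Ptx4 had r = 0.54 and met in 12 of 5364 cells where the product of shares gave 0.173, but r with Col22a1 was 0.07 for Chodl and 0.21 for Ptx4, and r among the 3 genes was 0.04 to 0.22 at d3 polytrauma. Chad and Cilp2 had r = 0.56 at d3 post-fracture and 0.19 at d3 polytrauma. Among the 4 genes of the Chad group r was 0.05 to 0.19 at d3 polytrauma, 0.02 to 0.55 at d5 post-fracture and 0.00 to 0.16 at d5 polytrauma. The UMIs came from few cells. In the d5 fracture library Col22a1 had 15 UMIs in 3 of 1468 cells, so its share and its r there rest on those 3 cells. Chodl UMIs lay in 24 cells and Ptx4 UMIs in 21, and the 10 highest cells held 85.8% of Chodl UMIs.

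Detection was read beside that in mural cells, taken as cells with UMIs of at least 2 of 7 mural markers at 2000 UMIs. At d0, 15.5% of 3888 cells (median 3948 UMIs) and 15.4% of 578 mural cells (median 4429.5 UMIs) had a Tnmd UMI, and 4.09% and 4.5% a Ptx4 UMI. The d0 cluster with the smooth muscle genes Pln, Tagln and Myh11 among its leading genes stood at 121 CPM of Tnmd and 25.9 CPM of Ptx4, against 23.8 and 1.62 CPM in the largest cluster, so mural cells give no background for these 2 genes. The other 8 members were detected in 0.346% to 3.46% of mural cells at d0 and in 1.65% to 11.3% of all cells. At d5 polytrauma 9.57% of the library and 8.48% of 165 mural cells (up to 13.8%) had a Tnmd UMI, and Scx was seen in 6.05% and 1.82% (up to 5.22%), with median UMIs of 16139 and 11686. At d5 post-fracture an Scx UMI was seen in 7.65% of the library (6.33 to 9.15) against 1 of 40 mural cells (2.5%, with an upper bound of 13.2%), too few to set them apart.

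Of the other genes of tendon past 2-fold from d0 to d3, most were lower. The members were chosen with their levels known, so how uniformly the lists moved cannot be compared. A list of 20 further tendon genes was taken from general knowledge with earlier results of these data known. Of these, 11 were at least 2-fold lower and 2 higher at d3 post-fracture than at d0 (median log2 ratio -1.42). At d3 polytrauma 13 were lower and 1 higher (-2.38). Of all genes compared, 33.5% and 32.5% were lower and 13.0% and 13.1% higher, so the few higher genes do not exceed that background. Kera (keratocan, a collagen-binding proteoglycan) stood at 196 CPM at d0, 6 and 4.66 at d3, and 4.4 and 7.44 at d5, and Fmod at 1260.3, 110, 32.5, 347 and 83.9 CPM from d0 over d3 post-fracture and polytrauma to d5 post-fracture and polytrauma. Tnc (tenascin C) stood at 54 CPM at d0, 445 and 272 at d3, and 506 and 615 at d5, opposite to the members at d3. Col11a1 stood at 51.6 CPM at d0, 37.9 and 13.9 at d3, and 913 and 179 at d5. From d3 to d5, 14 of the 20 were at least 2-fold higher after fracture and 12 after polytrauma, where 0 and 1 were lower, beside 40.3% and 28.8% of all genes compared that were higher.

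Of 15 genes of the TGF-beta, GDF and BMP, FGF and NFAT pathways or their partners, known from tendon development, 13 passed the minimum at d3 post-fracture against d0, of which 5 were at least 2-fold lower and 0 higher, beside 33.5% of all genes compared that were lower. Tgfbr2, a TGF-beta receptor, stood at 173 CPM at d0 and 49.3 and 34.6 at d3, and Spry1 at 73.9, 9.7 and 5.3. From d3 to d5 after fracture 9 of 14 were at least 2-fold higher and 0 lower, with Tgfb1 at 3.62 and 49.3 CPM and Gdf5 at 0.39 and 6.27 CPM. After polytrauma 6 of 14 were higher, with Tgfb1 at 3.1 and 59.3 CPM. Of all genes compared, 40.3% and 28.8% were higher in these comparisons, shares that the scaling moves as given above. Of 14 cartilage genes, 14 were at least 2-fold higher at d5 than at d3 post-fracture and 12 of 13 at d5 than at d3 polytrauma, and 14 of 14 were lower at d5 polytrauma than at d5 post-fracture, where 14.7% of all genes compared were lower. Col2a1 stood at 1525 CPM at d5 post-fracture and 78.1 CPM at d5 polytrauma. The 5 members that were lower in the last comparison share that direction with the cartilage genes by their selection, which shows no link between them. In cells with 0 Col2a1 UMIs, Chad stood at 7.4 CPM at d5 post-fracture and 0.0948 at d5 polytrauma, and Cilp2 at 8.43 and 0.216. Comp stood at 423.8 and 78.3 CPM in these cells, Chodl at 2.62 and 0.295, and Angptl7 at 0.562 and 0.532. The part of cartilage cells was not tested.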

How the data were processed

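Single-cell 3' RNA-seq libraries were made by the authors with Chromium chemistry, and Cell Ranger (3.1.0 in the file headers) gave the deposited gene by cell matrices of UMI counts on mm10, with Seurat 3.1.2 in the submitters' processing notes. The counts were used as deposited, since no normalization had been applied. Cells with 350 to 8000 genes, under 20% mitochondrial UMIs and at least 1000 UMIs were kept, which left between 51864740 and 202233564 UMIs in the injury libraries and 17437190 at d0. UMIs were summed per library and given per 1000000 UMIs (CPM), with exact Poisson intervals, exact conditional intervals for ratios and Clopper-Pearson intervals for shares at 95%. These cover counting error only. With 1 library per condition no test was run. Shares were compared after thinning each cell to 2000 UMIs. Clusters came from 2000 variable genes without the members, 20 principal components, 20 neighbours and Leiden at resolution 0.5, with 1.0 as the finer setting (Python 3.11.15, scanpy 1.11.5, scipy 1.17.1, leidenalg 0.10.2, igraph 0.11.9). Naming a cluster took at least 3 markers of a type. Each had to be found in at least 25% of its cells and stand at least 2-fold above the other cells. At least 2 markers of the type had to be among its 10 leading genes, and the type had to be the only best one by that count. The median UMIs of the cluster had to reach 1/3 of the library median. Scrublet's own threshold marked 0 to 40 cells per library, too few to have worked, so doublets were kept and the highest scores left out only as an alternative. The members and gene lists were chosen with earlier results of these data known. Other named genes are the leading genes of clusters, the 5 most like each member at d0 and members of the lists. The code was tested on simulated counts. The values of 1 cluster of the d5 fracture library are not reported here.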

Additional observations from a re-analysis of the deposited data

Results flagged for a closer look

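With the libraries read as above, Ptx4 moved in opposite directions from d3 to d5 in the 2 injuries. The log2 ratio was -0.67 after fracture (202 to 66 UMIs, 2.02 to 1.27 CPM). It was 1.47 after polytrauma (38 to 206 UMIs, 0.368 to 1.02 CPM). The 66 UMIs at d5 post-fracture lay in 21 cells. In thinned cells Ptx4 was detected in 0.578% (0.393 to 0.819) at d3 and 0.487% (0.196 to 1.0) at d5 post-fracture, with overlapping intervals. After polytrauma the shares were 0.0817% (0.0265 to 0.191) and 0.321% (0.226 to 0.443). Under the deposited labels the log2 ratios were -2.46 after fracture and -0.32 after polytrauma, so the opposite directions depend on how the labels are read. Each injury had 1 library per day, so the difference was not tested.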

How the results depend on the processing

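No paired analysis was possible because each condition had 1 library and no result came from a test. Of the 44 member ratios past 2-fold, 44 kept their direction under each of 6 alternatives: median-of-ratios scaling, no UMI minimum, shared barcodes left out, possible doublets left out, every cell weighing the same, and cells thinned to 2000 UMIs. Without cells holding Col2a1 UMIs 43 did, and the log2 ratio of Col22a1 at d5 against d3 post-fracture came to 0. Col22a1 had 0 UMIs in the d5 fracture cells without Col2a1. That ratio thus came from how counts of 0 were handled and shows no unchanged level. At a fold of 4 instead of 2, 3 members were past it from d3 to d5 after fracture and 3 after polytrauma, higher and lower together. With median-of-ratios scaling 4 members were past 2-fold from d3 to d5 after polytrauma, counted the same way. From d3 to d5 after fracture the split into higher and lower was 3 and 2 with median-of-ratios scaling, 4 and 3 when thinned and 3 and 1 without Col2a1 cells, and after polytrauma 4 and 2 without Col2a1 cells. Without possible doublets the log2 ratio of Angptl7 was -3.3 at d5 against d3 polytrauma and -1.61 at d5 polytrauma against d5 post-fracture. The cause was not tested.

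With the 2 disputed libraries used under their deposited labels, 15 of 34 ratios past 2-fold kept their direction, and the log2 ratios below changed sign because the libraries compared were exchanged. At d3 polytrauma against d0, Scx became 2.12 and Comp 1.61. At d5 against d3 post-fracture, Scx became -1.85, Tnmd -0.77, Comp -1.4, Cilp2 -2.94 and Angptl7 0.08. At d5 against d3 polytrauma, Scx became -0.36, Tnmd -0.66, Comp -2.8, Cilp2 -4.45 and Ptx4 -0.32. At d3 polytrauma against d3 post-fracture, Scx became 4.29, Chad 0.56, Comp 3.72 and Cilp2 2.6. At d5 polytrauma against d5 post-fracture, Comp became 2.32, Cilp2 1.09 and Chodl 0.03. Ratios that were not past 2-fold changed sign as well. In that last comparison Scx became 5.78 instead of -0.36, Tnmd 1.77 instead of -0.66, Ptx4 1.47 instead of -0.32 and Mkx 0.84 instead of -0.16. The lower Scx and Tnmd at d5 polytrauma thus depend on how the disputed libraries are read. Depth limits the members with few UMIs after injury, Cilp2 and Col22a1 above all, on 12 to 89 UMIs at d3.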

Other observations

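Some members had UMIs in d0 cells outside the tenocyte-like, Bglap2-led and Clu-led clusters. The cluster with smooth muscle genes described above beside the mural cells had 744 cells and was led by Map3k7cl, Olfr558, Pln, Tagln and Myh11. It held 12.9% of the Ptx4 UMIs at 25.9 CPM (20.6 to 32.1) and 4.9% of the Tnmd UMIs at 121 CPM (109.5 to 134). Tnmd was found in 30.4% of these cells and Ptx4 in 8.47%, whereas Scx was found in 1 of 744 cells and Chodl in 11.

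A cluster of 99 cells led by Spp1, Stra6 and Col9a2 held 12.8% of the Angptl7 UMIs of d0, at 1040.5 CPM (926 to 1165) and in 26.3% of its cells. Chodl stood at 138 CPM (98.5 to 187.7) there, while Scx, Comp, Cilp2 and Ptx4 had 0 UMIs in the 99 cells, with a counting interval that reaches 12.7 CPM for each.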
